A study of Mus musculus with 25 samples.

Results

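Colon RNA of NEMO-mutant mice whose labels remove IL-12 was set against that of NEMO-mutant mice whose labels leave IL-12 in place, with 10 libraries on each side. The IL-12-deficient pool joined the 5 NEMOIEC-KO Il12a-/- and the 5 NEMOIEC-KO Il12b-/- libraries, and the IL-12-competent pool joined the 5 NEMOIEC-KO and the 5 NEMOIEC-KO Il23a-/- libraries. These are 20 of the 25 libraries of the series, and the 5 Nemofl/fl libraries (floxed Ikbkg, with no epithelial knockout in the label) served as a reference level. Each library came from the distal colon of a C57BL/6 mouse of 6 weeks kept under SPF conditions on regular chow. All 20 mice of the pools carried the knockout of NEMO in intestinal epithelial cells, so the pools share that deletion. The deficient pool added labels for the p35 subunit (Il12a-/-) or the p40 subunit (Il12b-/-), whereas the competent pool held mice with the label for the p19 subunit (Il23a-/-) or with no cytokine allele. The labels name neither the Cre driver nor the construction of the cytokine alleles.

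NEMO, encoded by Ikbkg, is the non-catalytic part of the kinase complex that activates NF-κB, and its loss from the intestinal epithelium is known to cause epithelial cell death and colitis. IL-12 is a dimer of p35 and p40, is made by dendritic cells and macrophages, and drives T cells and natural killer cells to make interferon-gamma through the receptor chains IL-12Rβ1 and IL-12Rβ2 and the factor STAT4. IL-23 pairs the same p40 with p19 and sustains type 17 lymphocytes. By label, Il12b-/- therefore removes both cytokines, Il12a-/- removes IL-12 and Il23a-/- removes IL-23. Of these cytokines only IL-12 separates the pools, since each pool holds 5 mice whose label removes IL-23. The pools are not alike in all else, as the library code differs in part between them. Whether the alleles change more than these cytokines was not tested. The pooled design asks which differences are seen when each side holds 10 mice, with attention to genes that no comparison of 5 mice against 5 called.

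The targeted genes were examined first. Ikbkg had a median of 3.82 FPKM (fragment numbers divided by transcript length and library size) in the deficient and 3.46 in the competent pool, against 8.49 in Nemofl/fl. The lowest Nemofl/fl library had 8.27 FPKM and the highest library of the pools 5.85, so the groups did not overlap. Il12b RNA ran against its label: its median was 0.463 FPKM in the deficient and 0.117 in the competent pool, and the libraries labelled Il12b-/- lay above those labelled Il12a-/- (log2 fold change -1.35 for Il12a-/- minus Il12b-/-, limma adjusted p = 1.9e-07). Il12a RNA ran against its label too: the libraries labelled Il12a-/- held 0.610, 0.816, 1.98, 0.937 and 1.65 FPKM, and those labelled Il12b-/- 0.187, 1.08, 0.241, 0.278 and 0.327. The Il12a-/- libraries lay above NEMOIEC-KO (0.87, limma adjusted p = 0.044), while their difference of 0.89 from Il12b-/- did not pass (limma adjusted p = 0.25). Between the pools Il12a had medians of 0.713 and 0.374 FPKM, and the difference of 0.46 did not pass (limma adjusted p = 0.12). Il23a had medians of 0.213 and 0.212 FPKM. Whole-gene FPKM cannot show a partial deletion, so for the cytokine alleles the pools rest on the labels alone. Whether any label is wrong was not tested, and a wrong label would change what a pool holds.

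The 20 libraries had FPKM sums between 661321 and 744280, and mitochondrially encoded genes took 2.65% to 11.0% of them. By sex-linked RNA, 4 of 10 mice of the deficient and 5 of 10 of the competent pool were female. Within the competent pool these were 1 of 5 NEMOIEC-KO and 4 of 5 Il23a-/- mice, so sex differed between the 2 genotypes joined there. All 5 Nemofl/fl mice were male. All 10 deficient libraries and 6 competent ones carry the library code K002000079, while 3 NEMOIEC-KO libraries carry K002000081 and 1 Il23a-/- library K002000080, so the code differs in part with the pool. The 5 Nemofl/fl libraries all carry K002000081, a code that no deficient library has. Where Nemofl/fl is set against the deficient pool, genotype and code therefore cannot be told apart. On the first principal component, which held 32.7% of the variance of the 20 libraries, 8 deficient libraries lay between 30.2 and 42.8. Il12a-/- replicate 1 lay at -26.3 and Il12b-/- replicate 2 at -4.1, among the competent libraries, which reached from -68.9 to 10.5. Both libraries are kept in the values below. Whether their labels or their pieces of tissue set them apart was not tested.

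A gene was called when its adjusted p between the pools was under 0.05 in limma, on log2(FPKM + 0.5), among 19266 genes tested. Between the pools 3650 genes were called higher in the deficient pool (18.9% of the genes tested) and 1376 lower (7.14%), together 5026 or 26.1%. The excess of higher calls depended on scaling, since median-of-ratios scaling gave 2289 higher and 2182 lower. The counts depended on NEMOIEC-KO as well, without which 148 genes were higher and 208 lower. The pooled difference is the mean of 4 differences of 5 against 5, each of Il12a-/- and Il12b-/- against each of NEMOIEC-KO and Il23a-/-. Fitted on the same 20 libraries with 1 mean per genotype, these called 1324 genes (6.87%) for Il12a-/- against NEMOIEC-KO, 4.0% of the genes tested being higher and 2.88% lower. Il12a-/- against Il23a-/- gave 127 (0.659%, with 0.26% higher and 0.4% lower). Il12b-/- against NEMOIEC-KO gave 3446 (17.9%, with 12.8% higher and 5.08% lower), and Il12b-/- against Il23a-/- gave 672 (3.49%, with 2.14% higher and 1.35% lower). The 4 comparisons share libraries with each other and with the pooled comparison, so their calls are not independent of it.

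Of the called genes, 1682 higher (8.73% of those tested) and 509 lower (2.64%) were called in none of the 4 comparisons of 5 against 5. These 2191 genes (11.4%) are named pool-level genes here. The median log2 fold change was 0.41 for the higher and -0.40 for the lower pool-level genes, and the median size was 0.41 against 0.46 for the genes also called at 5 against 5. The median standard error over all genes fell from 0.145 at 5 against 5 to 0.105 at 10 against 10, and the smallest called difference fell from 0.16 to 0.11 on the log2 scale. A 2-fold difference or more was reached by 47 higher and 59 lower pool-level genes. The pooled test also missed genes: of 3784 called in at least 1 of the 4 comparisons, 949 were not called between the pools.

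**Figure D1:**
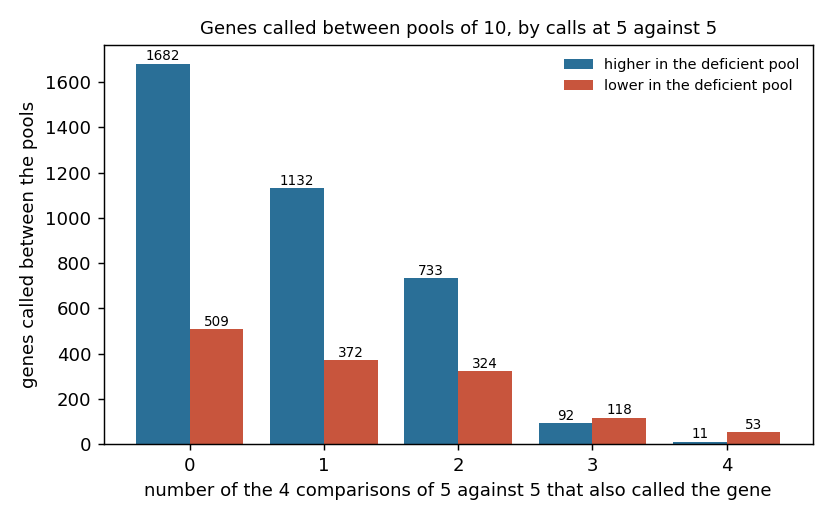
Genes called between the pools of 10 (vertical axis, number of genes) by how many of the 4 comparisons of 5 against 5 also called them (horizontal axis), with separate bars for genes higher and lower in the IL-12-deficient pool. The bars at 0 hold the 1682 higher and 509 lower pool-level genes, and 11 higher and 53 lower genes were called in all 4.

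The pools overlapped in every pool-level gene. Pools without overlap were found for 40 of the 19266 genes (0.208%), 10 higher (0.0519%) and 30 lower (0.156%), and 0 of these were pool-level genes. The choice of pool-level genes favours that, since pools that lie wholly apart tend to give a call at 5 against 5. All 2191 pool-level genes had the same sign in the 4 comparisons, which the choice of these genes favours. Between the genotypes joined in a pool, limma called 0 of the 2191 for Il12a-/- and Il12b-/-, with 3 at an unadjusted p under 0.05, and 0 for Il23a-/- and NEMOIEC-KO, again with 3. The choice of these genes favours this as well, since a difference within a pool adds to the error of the pooled test. Over all genes 69 (0.358%, with 0.145% higher and 0.213% lower) and 9 (0.0467%, with 0.0311% higher and 0.0156% lower) were called in these comparisons. The Nemofl/fl mean, which took no part in the test, was nearer the deficient pool for 90.4% of the 1682 higher and 94.3% of the 509 lower pool-level genes. For genes also called at 5 against 5 these shares were 92% and 95.7%, and for genes not called 63.7% and 70.9%.

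Within its genotype, Il12a-/- replicate 1 was the library nearest to the competent pool for 85.5% of the higher and 71.1% of the lower pool-level genes, and for 83.6% and 83.4% of the genes also called at 5 against 5. Il12b-/- replicate 2 was nearest for 49.4% and 67.4% of the pool-level genes. On the other side, Il23a-/- replicate 2 was the library nearest to the deficient pool for 50.2% and 39.9%, and NEMOIEC-KO replicate 1 for 29.5% and 51.3%. Without Il12a-/- replicate 1, 4763 genes were called higher and 1722 lower, and 1666 of the 1682 and 500 of the 509 pool-level genes were called again. However, the class itself became smaller, since only 907 higher genes were then without a call at 5 against 5. Without both outlying deficient libraries the class held 700 higher and 461 lower genes. Over all genes 4922 were then called higher and 2191 lower, against 3650 and 1376 with all 20 libraries. Counts of list members in these 2 fits are to be read against these larger totals.

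A second measure moved with the pools. The summed FPKM of 14 smooth muscle markers had a median of 5644 in the deficient pool (lowest 1802, highest 10173) and 2265 in the competent pool (1620 to 5239). With the mean log2 value of these markers as a covariate in limma, 42 of the 19266 genes tested were called higher and 110 lower between the pools. With so few calls over all genes, most lists had none in this fit. A count of 0 with this covariate in a list below is therefore no result about its members. Of the pool-level genes 5 of 1682 were still called higher and 0 of 509 lower, with 324 and 66 at an unadjusted p under 0.05. Their median log2 fold changes fell to 0.17 and -0.16, and 28 changed sign. Which tissue layers a piece of colon held and what the genotype changed cannot be told apart here.

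B cell markers rose in the deficient pool, and only the pools of 10 called them. Of 17 tested, 14 were called higher, all 14 pool-level genes (82.4% of the list against 8.73% of all genes), with a median log2 fold change of 1.01 against 0.07 over all genes. Ebf1 (0.27), Cd37 (0.70) and Ighm (0.55), the last also made by antibody-secreting cells, did not pass. Ighd, the heavy chain of IgD carried by mature naive B cells (chromosome 12, 113406604 to 113416324, GRCm38), ranged from 5.38 to 47.6 FPKM in the deficient pool (median 18.7) and from 2.23 to 14.6 in the competent pool (median 8.64). Its log2 fold change was 1.49 ± 0.36 (SE, limma adjusted p = 0.0077), while its adjusted p in the 4 comparisons of 5 against 5 lay between 0.074 and 0.15.

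Fcer2a, the low-affinity IgE receptor CD23 of follicular B cells, reached 3.23, 9.30, 6.01, 5.63 and 11.6 FPKM in the Il12a-/- libraries and 1.22, 17.6, 4.13, 6.65 and 3.82 in the Il12b-/- libraries. In NEMOIEC-KO it stood at 2.06, 1.83, 1.91, 0.567 and 2.81 FPKM, and in Il23a-/- at 0.354, 1.92, 2.97, 0.591 and 3.52. Of the 10 deficient libraries 8 lay above the highest competent one, and Il12b-/- replicate 1 and Il12a-/- replicate 1 did not. The difference was 1.56 ± 0.37 (SE, limma adjusted p = 0.0064). Pax5, the factor that fixes B cell identity, had medians of 3.97 and 1.29 FPKM (1.26 ± 0.35, limma adjusted p = 0.014). Fcmr, the Fc receptor for IgM and no member of the list, had 9.04 and 3.80 (1.36 ± 0.37, limma adjusted p = 0.013). Nemofl/fl medians were 7.24 FPKM for Ighd, 2.34 for Fcer2a and 1.27 for Pax5, nearer the competent than the deficient pool.

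The other members moved by similar amounts. Cr2 (complement receptor 2) rose by 1.01, Ms4a1 (CD20) by 1.00 and Cxcr5, which guides B cells into follicles, by 0.99. Of genes outside the list that B cells also make, Ccr6 rose by 0.62 and H2-Ob, a chain of the MHC class II loading machinery, by 0.96. However, H2-Ob was the only 1 of 15 MHC class II presentation genes called higher. In that list 6 were called lower, among them H2-Aa (-2.55) and Cd74 (-2.51), and the median was -0.26. The summed B cell markers ranged from 63.2 to 489 FPKM in the deficient pool (median 168) and from 46.2 to 188 in the competent pool (median 97.3). Il12b-/- replicate 2 held the highest sum and Il12b-/- replicate 1 the lowest of the deficient pool, so the spread within 1 genotype was wider than that of the competent pool. The B cell median was 1.13 with the smooth muscle covariate, and all 17 members had an unadjusted p under 0.05, but 0 had an adjusted p under 0.05 in limma. Without Il12a-/- replicate 1, 14 members were called, 10 of them with no call at 5 against 5, and without both outlying libraries 12 were called, 3 of them with none. In whole colon, more cells of a type and more RNA per cell cannot be told apart, and how many lymphoid follicles a piece of colon held was not tested.

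**Figure D2:**
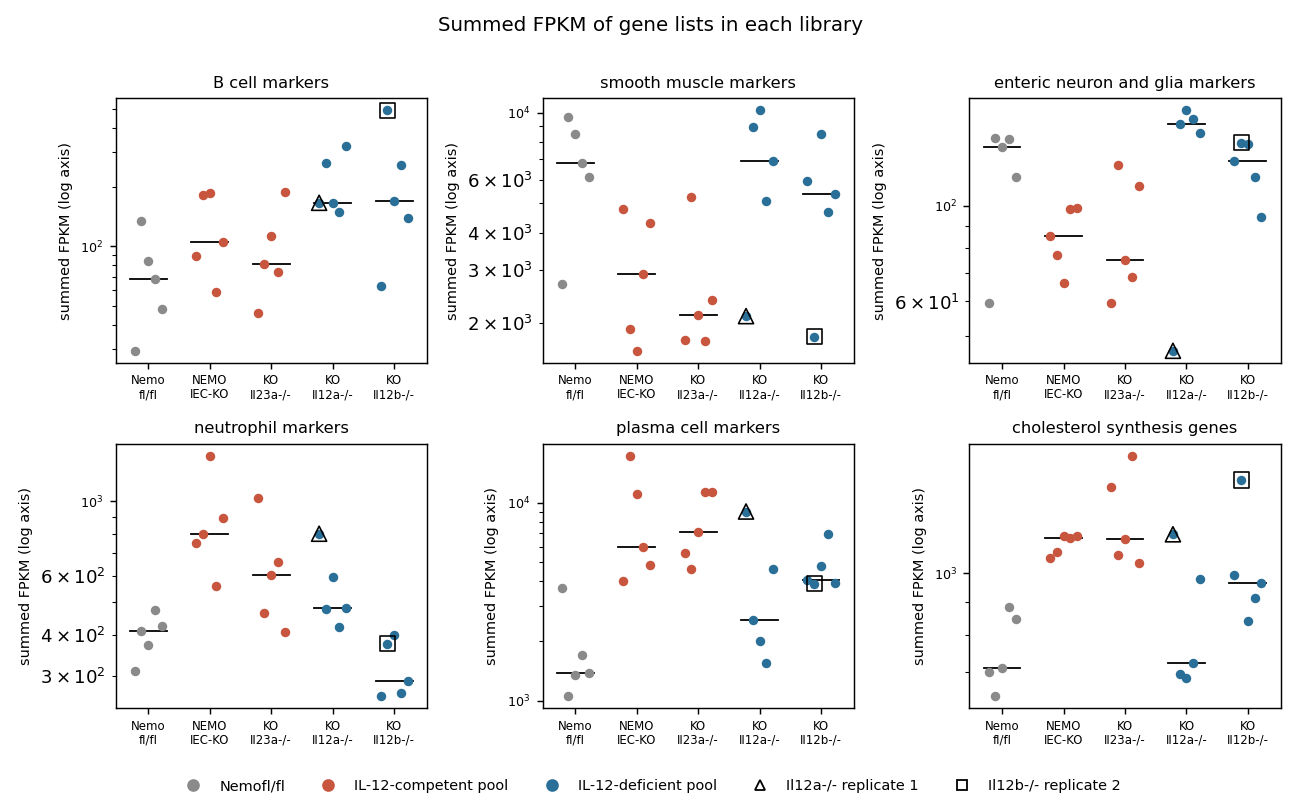
Summed FPKM (log axis) of 6 gene lists in each of the 25 libraries (points) by genotype, with a line at the median of each group of 5. B cell, smooth muscle and neural sums lie higher and neutrophil, plasma cell and cholesterol synthesis sums lower in most libraries of the deficient pool, and the triangle and the square mark Il12a-/- replicate 1 and Il12b-/- replicate 2. A large part of the neutrophil sum is Ly6g.

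Most smooth muscle markers rose. Of 14 tested, 12 were called higher, all 12 pool-level genes (85.7% of the list against 8.73% of all genes), with a median of 0.96 and a range from 0.24 to 1.65. Of the 2 that did not pass, Actg2 had 1.02 (limma adjusted p = 0.059). Acta2, the smooth muscle actin (chromosome 19, 34241090 to 34255590), ranged from 551 to 2462 FPKM in the deficient pool (median 1433) and from 419 to 1114 in the competent pool (median 600.2). Its difference was 1.04 ± 0.27 (SE, limma adjusted p = 0.0098). In 8 of 10 deficient libraries Acta2 exceeded every competent library, while Il12a-/- replicate 1 had 551 and Il12b-/- replicate 2 had 631 FPKM. Nemofl/fl had a median of 1886 FPKM. Pcp4, a small calmodulin-binding protein, changed most in the list, with medians of 41.7 and 11.3 FPKM (1.65 ± 0.42, limma adjusted p = 0.0092).

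Several contractile proteins lay near the list's median. Myh11, the smooth muscle myosin heavy chain, rose by 0.99, Des (desmin) by 0.96, Lmod1 by 0.96, Smtn (smoothelin) by 0.94 and Tagln (transgelin) by 0.94. Ckm, the muscle creatine kinase, followed with medians of 28.9 and 9.67 FPKM (1.27 ± 0.35, limma adjusted p = 0.014). Without Il12a-/- replicate 1, 13 of 14 smooth muscle markers were called, each with a call in at least 1 comparison of 5 against 5. Within the library code K002000079 alone (10 against 6), 6 of the 14 passed, with a median of 0.98. After median-of-ratios scaling 8 passed.

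Enteric neurons and glia, which run through the muscle layer and beneath the mucosa, gave 6 called genes among 14 tested, all higher and all pool-level genes (42.9% of the list against 8.73% of all genes), with a median of 0.50. S100b, a calcium-binding protein of enteric glia (chromosome 10, 76253853 to 76261159), had 1.16, 3.02, 4.62, 3.52 and 3.10 FPKM in Il12a-/- and 2.63, 2.27, 3.55, 2.29 and 2.31 in Il12b-/- libraries. In NEMOIEC-KO it had 1.71, 1.13, 0.788, 1.81 and 1.61, and in Il23a-/- 1.13, 2.51, 1.00, 0.900 and 1.77 FPKM. Except for Il12a-/- replicate 1, every deficient library exceeded 9 of the 10 competent libraries, and Il23a-/- replicate 2 was the exception on that side. The difference was 0.78 ± 0.18 (SE, limma adjusted p = 0.0057). Sox10, the glial and neural crest factor, rose by 0.69, Gap43, a growth cone protein, by 0.77, Uchl1 by 0.65 and the synaptic vesicle protein Syt1 by 0.64.

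The transmitter genes Vip and Nos1 did not pass: Vip had 0.37 (limma adjusted p = 0.19) and Nos1 0.36 (0.12). Cpe, a prohormone-trimming peptidase of neurons and endocrine cells, had medians of 76.3 and 32.6 FPKM (1.09 ± 0.24, limma adjusted p = 0.0051), and Scgn (secretagogin) rose by 0.57. They belong to the 18 enteroendocrine markers, of which only 3 were called (16.7% against 26.1% of all genes), and the third, the hormone gene Cck, fell by 0.73. The median of that list was 0.07, as over all genes. Ngb (neuroglobin) had medians of 6.25 and 1.54 FPKM (1.37 ± 0.31, limma adjusted p = 0.0057). The summed neural markers ranged from 46.1 to 167 FPKM in the deficient pool, with the lowest value in Il12a-/- replicate 1, and from 59.6 to 124 in the competent pool. Without that library 13 of 14 were called, all with a call at 5 against 5. The covariate of smooth muscle markers took the neural median to 0.09 and 0 passed in limma, with 1 at an unadjusted p under 0.05.

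Matrix genes showed a mixed picture. Of 26 fibroblast and matrix genes 11 rose and 3 fell (median 0.31), where 18.9% and 7.14% of all genes did, and 5 and 1 of these were pool-level genes. Without Il12a-/- replicate 1, 15 rose and 1 of them was a pool-level gene. Adjusted for smooth muscle markers 0 passed in limma, with 10 at an unadjusted p under 0.05. The higher ones included Sparc, a matrix-binding glycoprotein (medians of 364 and 229 FPKM, 0.63 ± 0.14, limma adjusted p = 0.0053), Fn1 (fibronectin, 0.63), Postn (periostin, 0.61), Loxl1, which crosslinks elastin (0.53), and Col3a1 (0.43). The lower one was Mmp13, a collagenase, which had a median of 0.708 FPKM in the deficient pool (0.339 to 1.48) and 8.05 in the competent pool (1.02 to 58.5). Its difference was -2.41 ± 0.56 (SE, limma adjusted p = 0.0061). The metalloproteinases Mmp7 (-2.93) and Mmp10 (-2.55) fell too, and had calls at 5 against 5.

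**Figure D3:**
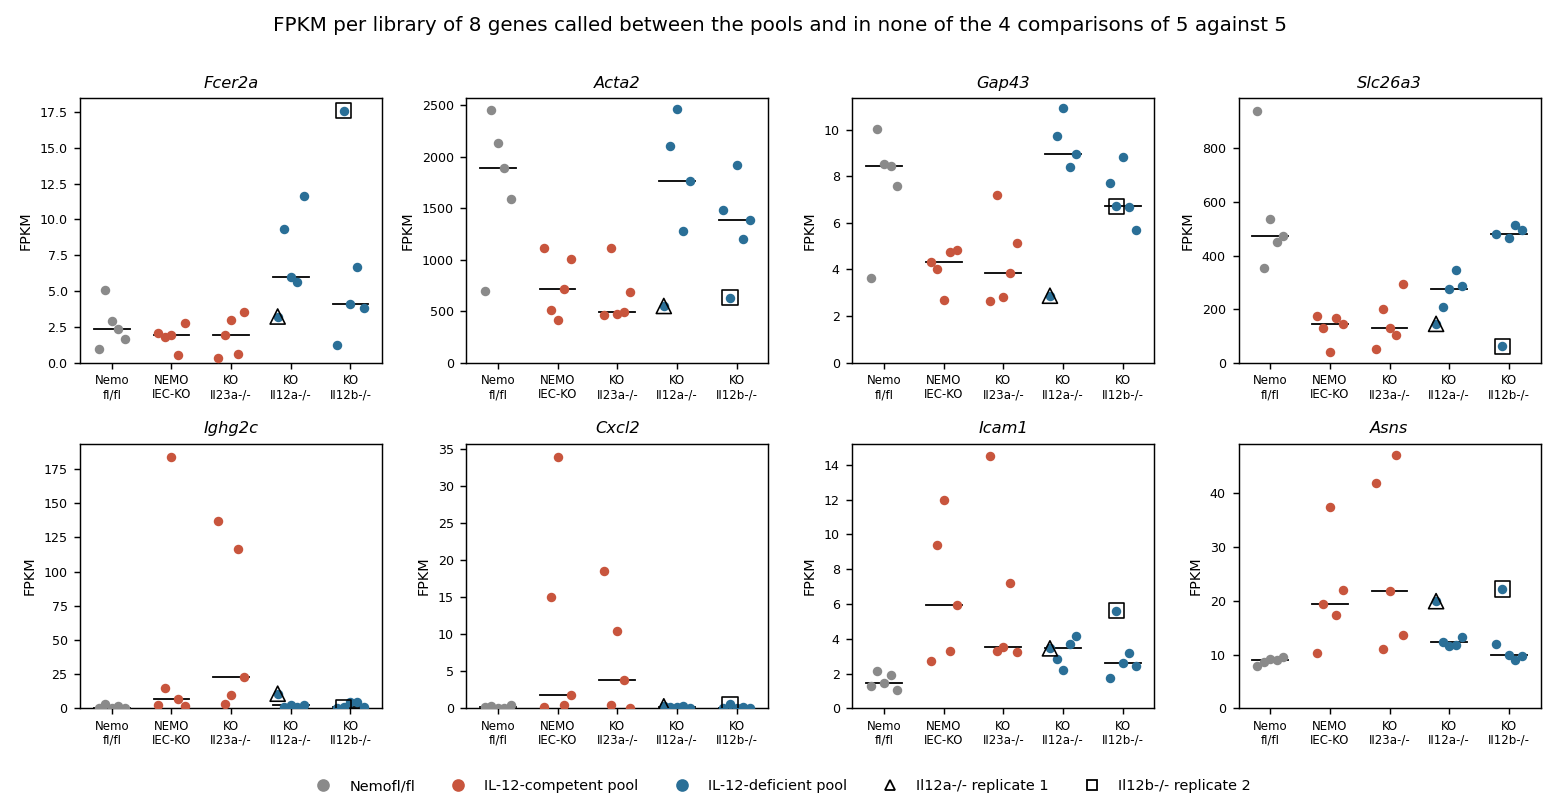
FPKM (linear axis from 0) of 8 pool-level genes in each of the 25 libraries (points) by genotype, with a line at the median of each group of 5. In Acta2 and Gap43 the triangle (Il12a-/- replicate 1) lies among the competent libraries, and in Ighg2c and Cxcl2 the competent libraries spread from near 0 to 184 and 34.0 FPKM.

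Genes of neutrophils fell. Of 21 neutrophil markers 15 were called lower, 10 of them pool-level genes (47.6% of the list against 2.64% of all genes), with a median of -1.32. S100a8, a subunit of calprotectin that neutrophils hold in bulk and epithelium can also make (chromosome 3, 90668978 to 90670035), stood at 49.4, 0.819, 0.392, 0.570 and 0.888 FPKM in Il12a-/- and at 0.226, 11.8, 0.722, 0.285 and 0.126 in Il12b-/- libraries. In NEMOIEC-KO it stood at 4.14, 64.0, 196, 12.0 and 15.3, and in Il23a-/- at 168, 0.633, 18.5, 57.3 and 0.308 FPKM. Hence 8 deficient libraries lay under 1 FPKM with the 2 outlying ones far above, and 8 competent libraries lay above 4 FPKM with Il23a-/- replicates 2 and 5 below 1. The difference was -3.20 ± 1.02 (SE, limma adjusted p = 0.026).

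Its partner S100a9 changed by -3.88 ± 0.98 (limma adjusted p = 0.0092) and was called for Il12b-/- against NEMOIEC-KO. Retnlg, a resistin-like protein of neutrophils, had medians of 0.0228 and 4.55 FPKM (-2.41 ± 0.72, limma adjusted p = 0.019). Fpr2, a formyl peptide receptor, had 0.180 and 1.12 (-1.64 ± 0.54, limma adjusted p = 0.030), and Fpr1 fell by 1.20 on the log2 scale. Il1r2, the decoy receptor for IL-1, fell by 1.57, Clec4e by 1.56, Ngp by 1.39, Trem1 by 1.11, Camp (cathelicidin) by 0.93 and Cxcr2, the receptor for the neutrophil-attracting chemokines, by 0.84. Ly6g had medians of 344 and 426 FPKM and 353 in Nemofl/fl, far above S100a8 and S100a9 in the same libraries, and fell by 0.50 with calls at 5 against 5. The list's sum ranged from 262 to 800 FPKM in the deficient pool (median 410) and from 408 to 1366 in the competent pool (median 703). Its Nemofl/fl median was 411 FPKM. Ly6g thus made up a large part of the sum, which says little of the other members. Leaving out 1 library at a time gave 10 to 18 called members, the fewest without NEMOIEC-KO replicate 3, and without both outlying libraries 18 were called. With the smooth muscle covariate the median was -0.53 and 0 passed in limma, with 1 at an unadjusted p under 0.05.

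Some chemokines that attract myeloid cells fell as well. Of 18 tested, 7 were called lower (38.9% against 7.14% of all genes), 3 of them pool-level genes (Cxcl2, Cxcl3 and Ccl2), and 11 did not pass. The list ranged from -2.41 to 0.24, with a median of -0.47. After adjustment for smooth muscle markers its median was -0.39 and 0 passed in limma, with 4 at an unadjusted p under 0.05. Cxcl2, a CXCR2 ligand (chromosome 5, 90903871 to 90905938), stayed between 0.0230 and 0.544 FPKM in all 10 deficient libraries (median 0.164). In the competent pool it reached 15.1 and 34.0 FPKM in NEMOIEC-KO replicates 2 and 3 and 18.6, 10.4 and 3.81 in Il23a-/- replicates 1, 3 and 4. It stayed at 0.183, 0.410, 0.443 and 0.0657 in NEMOIEC-KO replicates 1 and 4 and Il23a-/- replicates 2 and 5. The competent pool was therefore the one that split, and the difference of -2.41 ± 0.66 (SE, limma adjusted p = 0.013) rested on the 6 of its 10 libraries that exceeded every deficient one. Cxcl3 had medians of 0.0232 and 0.939 FPKM (-1.39 ± 0.42, limma adjusted p = 0.021). Ccl3, a chemokine of activated myeloid cells and lymphocytes listed here with the type 1 genes, had 0.232 and 1.12 (-1.48 ± 0.45, limma adjusted p = 0.023).

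Among 15 inflammatory cytokine genes 9 fell (median -0.75), of which 5 were pool-level genes (33.3% of the list against 2.64% of all genes). Their median was -0.35 after adjustment for smooth muscle markers, and 0 passed in limma, with 4 at an unadjusted p under 0.05. Il1a, an alarmin of damaged epithelium, had at most 0.237 FPKM in the deficient pool and a median of 1.52 in the competent pool, with 8.54 and 7.14 in NEMOIEC-KO replicate 3 and Il23a-/- replicate 1 (-1.62 ± 0.43, limma adjusted p = 0.012). Il11, a stromal cytokine of the IL-6 family, had medians of 0.293 and 2.42 FPKM (-1.49 ± 0.40, limma adjusted p = 0.012). Osm (oncostatin M) fell by 0.95, Csf3, which drives neutrophil production, by 0.75 and Il10 by 0.31. Il1b (-3.17), Tnf (-1.33), Il6 (-0.80) and Lif (-0.93) were called at both group sizes. Saa3, an acute phase protein, had medians of 3.10 and 80.5 FPKM (-3.42 ± 0.80, limma adjusted p = 0.0063) and had the largest difference among the pool-level genes. Hp (haptoglobin, -2.03 ± 0.68), Acod1, which makes itaconate in activated macrophages (-1.96 ± 0.50), and Stfa2l1 (-1.76 ± 0.51) fell as well (limma adjusted p between 0.0098 and 0.034).

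The 2 outlying deficient libraries stood apart in some of these genes and not in others. Both lay above the other deficient libraries for S100a8 and above the median of their pool for Saa3. Neither exceeded 0.544 FPKM for Cxcl2. Il12a-/- replicate 1 had 49.4 FPKM of S100a8 and 24.1 of Saa3, but 0.273 of Cxcl2 and 0.197 of Il1a, within the range of the other deficient libraries. Il12b-/- replicate 2 had 11.8 FPKM of S100a8, 71.4 of Saa3 and the highest Cxcl2 of its pool, 0.544. Cxcl2, Il1a, Mmp13 and Acod1 reached at most 0.544, 0.237, 1.48 and 0.383 FPKM in the 10 deficient libraries.

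**Figure D4:**
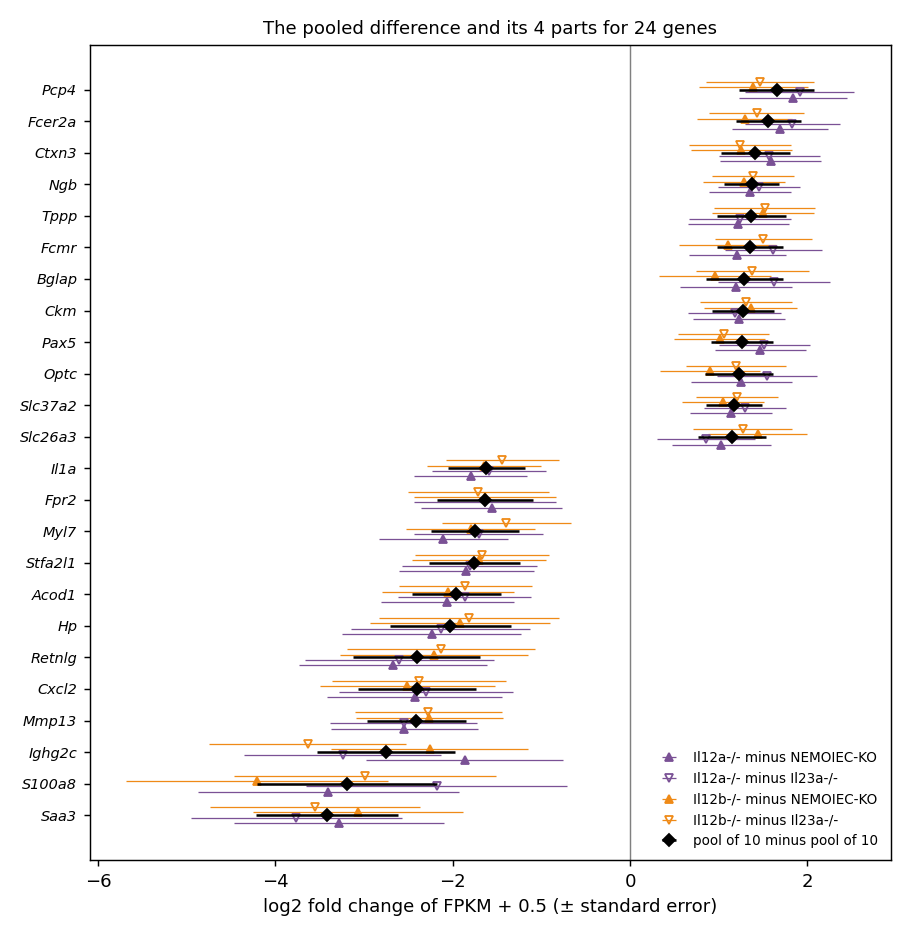
Log2 fold change (horizontal axis, ± standard error) of 24 pool-level genes between the pools (black diamonds, 10 against 10) and in the 4 comparisons of 5 against 5 (triangles). The 4 parts of each gene lie on the same side of 0 with wider error bars than the pooled value, for example -3.42 ± 0.80 between the pools in Saa3. Both features were largely set in advance, the first by the choice of genes and the second by the group sizes.

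Antibody genes fell while the B cell markers rose. Of 15 plasma cell markers 7 were called lower, 5 of them pool-level genes (33.3% of the list against 2.64% of all genes), with a median of -0.55. Igha, the heavy chain of IgA, ranged from 443 to 3008 FPKM in the deficient pool (median 1236) and from 1364 to 6339 in the competent pool (median 2190). Its difference was -1.06 ± 0.32 (SE, limma adjusted p = 0.022). Igkc, the kappa light chain, fell by 0.95. Ighg2c, the IgG2c heavy chain whose class switch interferon-gamma favours (chromosome 12, 113285325 to 113288932), had a median of 1.60 FPKM in the deficient pool (0.568 to 10.7) and 12.4 in the competent pool (1.39 to 184). Its difference was -2.75 ± 0.78 (SE, limma adjusted p = 0.015), and the highest deficient value was again that of Il12a-/- replicate 1. Ighg3 fell by 1.09 ± 0.30 (limma adjusted p = 0.013).

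In contrast, Ighg1 averaged 30.7 FPKM in the deficient and 16.2 in the competent pool (0.65 ± 0.64, limma adjusted p = 0.48), and Ighg2b 18.8 and 59.6 (-1.14 ± 0.65, limma adjusted p = 0.20). Constant-region genes share similar stretches, and the way the authors assigned reads to them is not given in the sources used here. Jchain, which joins IgA and IgM chains, fell by 1.07 and Prdm1, the plasma cell factor Blimp-1, by 1.02, both with calls at 5 against 5. The surface markers Sdc1 (-0.08) and Tnfrsf17 (-0.27) did not pass. The list's sum ranged from 1549 to 9017 FPKM in the deficient and from 4002 to 17191 in the competent pool, and the highest deficient value was that of Il12a-/- replicate 1. Without it 7 members were called, all with a call at 5 against 5. With the smooth muscle covariate the median was -0.13, and 0 passed in limma, with 3 at an unadjusted p under 0.05.

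Most type 1 lymphocyte genes and interferon targets that fell were also called at 5 against 5. All 16 cytotoxic and type 1 genes tested fell (median -1.12), where 7.14% of all genes did. Of these, 5 were pool-level genes (31.2% of the list against 2.64% of all genes). They were Ccl3 (-1.48), Klrk1 (the activating receptor NKG2D, -0.63), Cxcr3, the receptor for interferon-induced chemokines (-0.50), Klrc1 (-0.40) and Fasl (-0.29). With the smooth muscle covariate 4 of the 16 were called, with a median of -0.67. Ifng itself averaged 0.0447 FPKM in the deficient and 1.67 in the competent pool (-1.48 ± 0.39, limma adjusted p = 0.011). Of 21 T cell markers 8 fell (38.1%), and 2 were pool-level genes (9.52% of the list). These 2 were Zap70, the kinase below the T cell receptor (-0.52), and Cd6 (-0.51). The T cell median was -0.07 with the smooth muscle covariate, and 0 passed in limma, with 2 at an unadjusted p under 0.05. Without both outlying libraries 13 fell, as did 2191 of the 19266 genes tested. Of the receptor and signalling genes of the IL-12 family, Il12rb1 fell by 0.79 with calls at 5 against 5, and Tyk2, the kinase bound to it, by 0.20 as a pool-level gene. Stat4 averaged 1.16 and 1.14 FPKM and did not differ beyond its error.

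Of 40 interferon-gamma response genes 39 fell (median -2.04), where 7.14% of all genes did. Icam1 was the pool-level one (2.5% of the list against 2.64% of all genes). Of 27 type I interferon response genes 25 fell (median -0.78). The RNA sensors Dhx58 (-0.54 ± 0.13) and Ddx58 (-0.30 ± 0.10) were the pool-level genes (7.41% of the list). In antigen presentation by MHC class I, 15 of 16 fell (median -0.92), 2 of them pool-level genes (12.5% of the list). These were the peptide-loading chaperones Pdia3 (medians of 173 and 247 FPKM, -0.44 ± 0.11, limma adjusted p = 0.0076) and Calr (316 and 440, -0.41 ± 0.13, limma adjusted p = 0.022). After adjustment for smooth muscle markers 26 of the 40 interferon-gamma genes, 8 of the 27 type I genes and 12 of the 16 class I genes were called lower.

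Icam1, the endothelial and epithelial adhesion molecule that binds leukocyte integrins (chromosome 9, 21015985 to 21028817), reached 14.5, 12.0, 9.38, 7.21 and 5.96 FPKM in 5 competent libraries and lay between 2.73 and 3.51 in the other 5. In the deficient pool it lay between 1.76 and 5.62. Its difference was -0.76 ± 0.27 (SE, limma adjusted p = 0.044), close to the threshold. Its RefSeq promoter is shown since it carries a GAS motif, the letters TTCNNNGAA known from interferon-gamma response genes, at positions -42 to -34 from the start (chr9:21015690-21015939, GRCm38.p6, plus strand, motif in capitals).
Icam1: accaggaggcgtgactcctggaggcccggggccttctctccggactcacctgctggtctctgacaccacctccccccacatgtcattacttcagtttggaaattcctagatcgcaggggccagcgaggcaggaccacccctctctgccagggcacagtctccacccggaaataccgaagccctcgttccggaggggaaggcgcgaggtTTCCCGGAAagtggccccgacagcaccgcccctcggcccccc
On either strand and including overlaps, this motif was found in 9 of 25 promoters matched to the interferon-gamma list (36.0%) and in 8.3% of all 32851 promoters, and in 8.2% of 427 promoters matched to the lower pool-level genes. The interferon-stimulated response element, GAAA with any 2 bases before a further GAAA, was found in 7.26% of those 427 promoters, in 2.24% of 1561 promoters of the higher pool-level genes and in 3.44% of all. A match describes the letters and not a bound site.

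Genes of protein folding in the endoplasmic reticulum fell by small amounts. Of 23 unfolded protein response genes 12 were called lower (median -0.33, where 7.14% of all genes were lower), 6 of them pool-level genes (26.1% of the list against 2.64% of all genes). Without Il12a-/- replicate 1, 2 of the 12 called lower were pool-level genes, and without both outlying libraries 15 were called lower. The smooth muscle covariate took the median to -0.09 and 0 passed in limma, in a fit where few of all genes did, with 2 at an unadjusted p under 0.05. Asns, asparagine synthetase, a target of ATF4 (chromosome 6, 7675169 to 7693254), had medians of 11.9 and 20.5 FPKM (-0.73 ± 0.26, limma adjusted p = 0.041). The outlying libraries Il12a-/- replicate 1 and Il12b-/- replicate 2 held 19.9 and 22.2 FPKM, and the other 8 deficient libraries lay between 9.05 and 13.3. Chac1, a glutathione-degrading enzyme downstream of ATF4, had medians of 0.748 and 1.61 FPKM (-1.25 ± 0.36, limma adjusted p = 0.016). Sdf2l1 fell by 0.51, Hyou1, an ER chaperone, by 0.39 and Xbp1, the factor spliced by IRE1, by 0.29, while Atf4 (0.04) and Ddit3 (0.23) did not pass.

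Hsp90b1, the ER chaperone GRP94, had medians of 155 and 191 FPKM (-0.33 ± 0.10, limma adjusted p = 0.024). Its promoter is shown since it carries 2 copies of the ER stress response element, the letters CCAAT, any 9 bases and CCACG, or their reverse complement, the first copy at -212 to -194 (chr10:86705445-86705694, GRCm38.p6, minus strand, motif in capitals).
Hsp90b1: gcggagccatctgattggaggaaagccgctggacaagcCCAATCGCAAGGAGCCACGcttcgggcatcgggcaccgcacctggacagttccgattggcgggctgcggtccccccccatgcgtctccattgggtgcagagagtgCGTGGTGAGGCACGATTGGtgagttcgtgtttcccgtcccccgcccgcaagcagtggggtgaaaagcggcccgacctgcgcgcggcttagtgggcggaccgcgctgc
The element was found in 6 of 19 promoters matched to the list (31.6%) and in 0.119% of all promoters. Besides Hsp90b1 these were Hspa5, Dnajc3 and Creld2, which were called lower, and Pdia6 and Syvn1, which were not. Plasma cells and secretory epithelium both express these genes, and the plasma cell markers moved with them. Their part in the result was not tested.

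Cholesterol synthesis genes gave 10 called of 21, all lower (median -0.34, where 7.14% of all genes were lower), of which 7 were pool-level genes (33.3% of the list against 2.64% of all genes). Pmvk, phosphomevalonate kinase, had medians of 30.1 and 47.4 FPKM (-0.53 ± 0.18, limma adjusted p = 0.037). Fdps fell by 0.51, Cyp51 by 0.49, Msmo1 by 0.40 and Fdft1 (squalene synthase) by 0.38. Hmgcs1 (-0.32) and Sqle (-0.33) did not pass. The summed level ranged from 685 to 1397 FPKM in the deficient pool, with the highest value in Il12b-/- replicate 2, and from 1039 to 1523 in the competent pool. Nemofl/fl libraries lay between 642 and 887. Without Il12a-/- replicate 1, 11 members were called, all also at 5 against 5, and without both outlying libraries 17. With the smooth muscle covariate the median was -0.07 and 0 passed in limma, with 1 at an unadjusted p under 0.05.

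Epithelial functions added single pool-level genes, and their lists went both ways. Of 27 absorptive colonocyte markers 5 rose and 6 fell (from -1.28 to 2.49), where 18.9% and 7.14% of all genes did. Pool-level genes were 1 of those that rose and 2 of those that fell. Of 17 goblet cell markers 2 rose and 4 fell (from -2.65 to 2.13), with 2 pool-level genes, both lower. Slc26a3, the chloride-bicarbonate exchanger of surface colonocytes (chromosome 12, 31390871 to 31473917), had a median of 317 FPKM in the deficient, 138 in the competent pool and 474 in Nemofl/fl. Il12b-/- libraries held 479, 61.2, 465, 513 and 494 FPKM and Il12a-/- libraries 145, 208, 276, 345 and 288, so that replicate 2 of Il12b-/- stood apart from 4 libraries at the Nemofl/fl level. The difference was 1.15 ± 0.38 (SE, limma adjusted p = 0.032), and it did not pass in 16 of 40 alternatives, median-of-ratios scaling and the smooth muscle covariate among them. Muc2, the secreted mucin of goblet cells, had medians of 949.5 and 1512 FPKM (-0.56 ± 0.18, limma adjusted p = 0.028), and Galnt12, which starts its sugar chains, 28.0 and 41.5 (-0.48 ± 0.11, limma adjusted p = 0.0063). Scnn1b, a subunit of the epithelial sodium channel, was lower at 9.95 against 13.7 FPKM, although Nemofl/fl held 16.4 (-0.68 ± 0.20, limma adjusted p = 0.020). It thus moved away from the Nemofl/fl level.

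Of the metabolic lists, those of xenobiotic metabolism and fatty acid oxidation held higher pool-level genes at about the share of all genes, 8.73%. Of 35 xenobiotic metabolism genes 19 rose (median 0.68), where 18.9% of all genes did, and 3 were pool-level genes (8.57%), among them Fmo4 (0.69) and Cyp2d26 (0.75). Of 24 genes of fatty acid oxidation and ketogenesis 11 rose and 1 fell, with Acadm, the medium-chain acyl-CoA dehydrogenase (0.28), among the 2 pool-level genes (8.33%). With the smooth muscle covariate 1 gene of each list was called higher. The largest fall among all named genes was that of Ido1, which breaks down tryptophan and is induced by interferon-gamma, at -5.42 ± 0.61 with calls in all 4 comparisons.

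**Figure D5:**
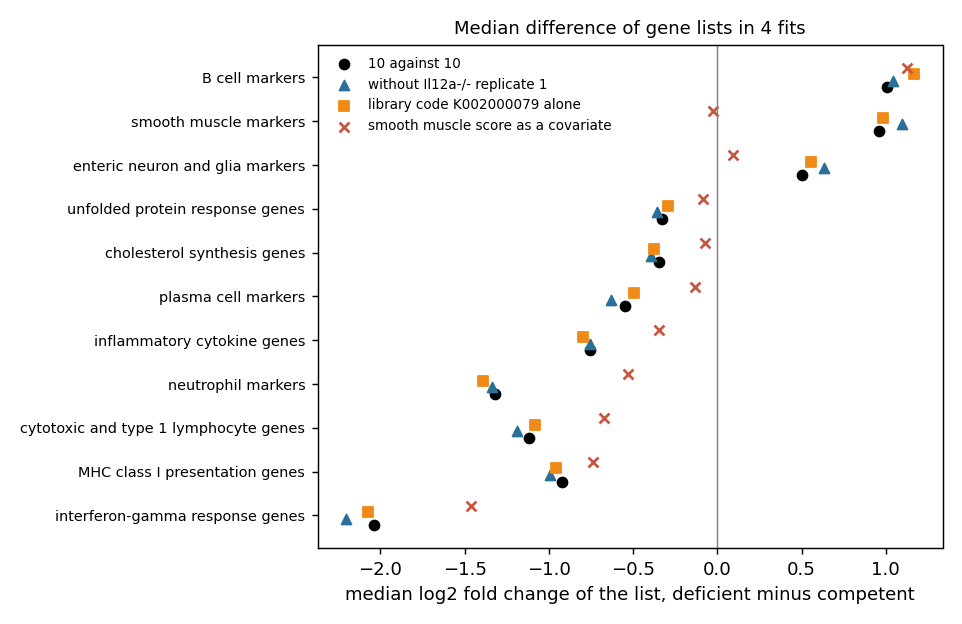
Median log2 fold change (horizontal axis, deficient minus competent) of 11 gene lists with all 20 libraries, without Il12a-/- replicate 1, within 1 library code and with the smooth muscle score as a covariate. The score is the mean of the smooth muscle markers themselves. The fall of their own median from 0.96 to -0.03 with it was therefore fixed in advance. The covariate takes the median of neural markers from 0.50 to 0.09, while B cell markers have 1.13 and interferon-gamma response genes -1.46.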

How the data were processed

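RNA of the distal colon of 25 mice was sequenced from poly(A)-selected stranded libraries, paired-end, per the labels' protocols. The authors deposited a table of FPKM values, which were used as they stand. The build GRCm38 and the tools Cufflinks 2.1.1, TopHat2 2.0.10 and DESeq2 1.10.1 are named per the submitters' processing notes, with their roles not given in the sources used here. FPKM keeps no read number, so the depth is unknown and no counting interval is given. Groups come from the sample titles.

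Values were taken as log2(FPKM + 0.5). Fold changes are on this scale, which understates the change of low genes. A gene was tested if 5 or more of the 25 libraries reached 0.2 FPKM, in limma 3.58.1 (R 4.3.3, trended variance, Benjamini-Hochberg adjustment over 19266 genes) with 1 mean per pool and 18 residual degrees of freedom. The 4 comparisons of 5 against 5 used 1 mean per genotype on the same 20 libraries. The procedure was tested on simulated data. Named genes were the largest differences (5 each way among all called genes, 12 each way among pool-level genes), up to 2 pool-level members each way per list, and the targeted genes. The largest differences needed a mean of at least 1 FPKM in the higher pool and the same sign in the 4 comparisons of 5 against 5. Further list members were named after their values were seen. The members and lists were chosen with earlier results of these data known. The alternatives were scaling, filter, pseudocount, sex, library code, a smooth muscle score and leaving out libraries or genotypes. The joint omission of Il12a-/- replicate 1 and Il12b-/- replicate 2 was chosen after seeing the data. Promoters (RefSeq, GRCm38.p6) were matched by symbol for 1167 of 1677 higher and 346 of 509 lower symbols of pool-level genes. Some genes that were tested and counted are not reported here.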

Additional observations from a re-analysis of the deposited data

Results flagged for a closer look

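In 51 of 452 groups of 5 libraries examined (11.3%), 1 library lay far from the other 4. The rule flags about 1 in 20 among independent normal values. That is no fair level for this set, since its genes were chosen from these data and share the same libraries. Of the 51 groups, 21 were flagged in Il12a-/- replicate 1, 21 in Il12b-/- replicate 2 and 4 in NEMOIEC-KO replicate 3.

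Il12a-/- replicate 1 stood high for S100a8 (49.4 FPKM), S100a9 (13.9), Retnlg (0.82), Stfa2l1 (0.615), Ubd (33.8), Ly6a (2290) and Clca4b (907), and for Asns (19.9), Calr (485), Chac1 (3.49), Cycs (134), Mrpl20 (100) and Psma5 (93.8). It stood low for Cpe (27.2), Cyp2c55 (0.229), Gap43 (2.88), Kit (7.89), Ldhb (6.12), Nkd1 (6.16) and Scgn (1.99), and its summed enteric neuron and glia markers were 46.1 FPKM.

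Il12b-/- replicate 2 stood high for S100a8 (11.8 FPKM), S100a9 (21.4), Retnlg (4.56), Stfa2l1 (1.04), Myl7 (17.6), Nlrp3 (0.344), Ly6a (883), Elf3 (416), Il12a (1.08), Psma5 (88.4) and Rrm2 (18.1). It stood low for Angptl7 (9.68), Cpe (36.3), Cyp2c55 (5.08), Mcl1 (131), Mptx1 (51.7), Optc (3.31), Plin4 (3.85), Scnn1b (5.16), Slc26a3 (61.2) and mt-Nd4 (853). Both libraries therefore shared high S100a8, S100a9, Retnlg, Stfa2l1, Ly6a and Psma5.

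NEMOIEC-KO replicate 3 was listed at 0 for C2, while the other 4 libraries of its group had 13.9 to 20.6 FPKM, and it stood low for Fmo4 (0.829), Mertk (4.39) and Slc26a3 (42). Single libraries also stood apart for Acadm (72.2 in Il12a-/- replicate 4), Ighd (2.9 in NEMOIEC-KO replicate 4), Il23a (0.361 in Il12a-/- replicate 3), Pex10 (3.47 in Il23a-/- replicate 1) and Scnn1b (25.4 in NEMOIEC-KO replicate 2). Il12b differed between the genotypes of the deficient pool, by -1.35 on the log2 scale for Il12a-/- minus Il12b-/-, and the libraries labelled Il12b-/- had more of it.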

How the results depend on the processing

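The number of calls between the pools and their split by direction depended on scaling, on the smooth muscle score and on which genotypes entered. Median-of-ratios scaling gave 2289 higher and 2182 lower genes, with 858 lower pool-level genes, so that the share of higher calls was 51.2% against 72.6%, and it moved the median of all genes from 0.0686 to -0.0027. Quantile normalization gave 58.9% higher. With the smooth muscle score 42 genes were higher and 110 lower, 2 and 0 of them pool-level genes, and 144 genes were called between Il12a-/- and Il12b-/- and 96 between Il23a-/- and NEMOIEC-KO. Within library code K002000079 839 genes were lower and 3 were called between Il23a-/- and NEMOIEC-KO. Without the NEMOIEC-KO genotype 148 were higher and 208 lower, without Il12b-/- 270 and 249, and without Il12a-/- 868 lower. Without the 2 outlying deficient libraries 2191 were lower, 700 higher genes were pool-level genes, and 70 were called between Il23a-/- and NEMOIEC-KO. A mean of at least 1 FPKM gave 45 calls between Il12a-/- and Il12b-/- and 3 between Il23a-/- and NEMOIEC-KO, and that last count was 16 with all 25 libraries and 2 with sex as a covariate. The causes were not tested.

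Leaving out 1 library at a time gave 2885 to 4763 higher and 1061 to 1759 lower genes. Pool-level genes then numbered 907 (without Il12a-/- replicate 1) to 1830 higher and 264 (without Il23a-/- replicate 1) to 650 lower. Calls between Il12a-/- and Il12b-/- numbered 46 to 71, and between Il23a-/- and NEMOIEC-KO 3 to 49.

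Replicate numbers did not pair the mice: deviations of same-numbered libraries correlated with a median r of -0.012 over 30 pairs, against 0.017 over 120 other pairs. With the replicate block 3343 genes were higher and 1206 lower, and 2 were called between Il23a-/- and NEMOIEC-KO.

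Targeted genes that did not pass changed sign under some alternatives. Ikbkg had -0.00309 after quantile normalization and -0.0323 without the Il23a-/- genotype. Il12b had -0.109 without the Il12b-/- genotype. Il23a had 0.0317 with the smooth muscle score, 0.00759 within K002000079, 0.0291 without NEMOIEC-KO, 0.0775 without Il12a-/- and 0.00996 without the 2 outlying libraries, and between -0.0658 and 0.0634 with 1 library left out. Optc, a pool-level gene, had -0.0387 with the smooth muscle score.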
